A study of Homo sapiens with 3 samples.

Results

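MEIS1 ChIP-seq peaks whose summit fell in an annotated SINE or DNA transposon were examined in 2 peak lists, 1 for each of 2 derivatives of CWR22Rv1, a long-established human prostate cancer cell line. Members were the peaks whose detailed annotation had the class SINE or DNA, and there were 303 of them among 8015 peaks in both lists. The LV-MEIS1 list of 5968 peaks held 280, with 110 in SINEs and 170 in DNA transposons. The HOXB13ko-LV-MEIS1 list of 2047 peaks held 23, with 20 in SINEs and 3 in DNA transposons. A further 13 LV-MEIS1 peaks and 1 HOXB13ko-LV-MEIS1 peak carried the class DNA with a question mark and were not counted. LV-MEIS1 cells expressed exogenous MEIS1 from a lentivirus and kept their own HOXB13, and HOXB13ko-LV-MEIS1 cells expressed the same MEIS1 after CRISPR knockout of HOXB13, in a pool recombined from several knockout clones. Both derivatives were grown in the same serum-containing medium with puromycin, and the comparison asks where MEIS1 sits on DNA with and without HOXB13. The authors pooled 3 immunoprecipitations of LV-MEIS1 cells (202428594 tags) and 2 of HOXB13ko-LV-MEIS1 cells (105763683 tags) and called each pool against 1 input (39102495 tags). Each line therefore had 1 list with no replicate error, and differences between the lists describe these 2 lists at these depths.

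MEIS1 is a homeodomain protein of the TALE group that binds DNA with HOX and PBX partners, and the core of its binding word is TGACA. HOXB13 is a posterior HOX protein of the prostate epithelium, and posterior HOX proteins bind words with TTTAC or TTTAT. SINEs are short retrotransposons copied through RNA. MIR elements are an old mammalian SINE family derived from tRNA, and Alu elements are a younger primate family derived from 7SL RNA. DNA transposons move as DNA, and in humans they survive as immobile fossils, mostly of the hAT superfamily (Charlie, Blackjack, Tip100) and of Tc1/mariner relatives (Tigger). Elements named MER1, MER5, MER20, MER58 and MER63 are short relatives of the hAT group that no longer carry their own transposase.

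Copies of 1 element share an ancestor, so peaks in them can share sequence, and the sequences shown first, 5′ to 3′ from hg38, come from such copies. MER58 copies had TGACA in fewer of their summits than MER1 copies. A 9-letter word present at 8 of 30 MER58 summits holds ATAAA, the reverse complement of the HOX word TTTAT. Of the strongest copies with that word, shown in capitals, a pair lies at chr3:174936772-174936812 (minus strand) and chr3:45418581-45418621 (minus).
MER58A near NAALADL2: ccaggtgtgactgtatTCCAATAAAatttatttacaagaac
MER58A near LARS2: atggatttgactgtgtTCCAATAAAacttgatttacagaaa

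The strongest members have less in common with each other. Shown with TGACA in capitals are the strongest DNA transposon copy, at chr10:88440189-88440233 (plus), and the 3 strongest MIR copies that hold TGACA within 50 bp of the summit, at chr7:51606985-51607029 (minus), chr5:149937810-149937854 (plus) and chr1:223706702-223706746 (minus).
MamTip2 near RNLS: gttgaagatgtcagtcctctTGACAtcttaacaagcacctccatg
MIR near COBL: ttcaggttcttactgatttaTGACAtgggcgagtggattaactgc
MIRb near LOC644762: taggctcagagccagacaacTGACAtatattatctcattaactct
MIRb near CAPN2: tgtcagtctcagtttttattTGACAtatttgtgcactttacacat

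Last come HOXB13ko-LV-MEIS1 members. A MIR in POLR3E, at chr16:22298543-22298589 (minus), holds a B box word of tRNA genes in capitals. A MER20B copy present in both lists, at chr13:45929091-45929151 (plus), has no TGACA within 50 bp of its summit. It does hold TGATTTAC and, on the other strand, TGATTAC, which are words of MEIS or PBX with HOX.
MIR in POLR3E: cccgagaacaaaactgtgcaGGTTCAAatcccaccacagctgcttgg
MER20B near SIAH3: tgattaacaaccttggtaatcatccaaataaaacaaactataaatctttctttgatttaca

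SINEs made up 1.84% of the LV-MEIS1 list (95% Wilson interval 1.53% to 2.22%), and 92 of the 110 peaks were in MIR elements. Intervals here and below cover counting error only. The MIR peaks were in MIRb (35 peaks), MIR proper (27), MIRc (22) and MIR3 (8). Alu elements held 12 peaks, 4 of them in AluJb, and the families 5S-Deu-L2, tRNA and tRNA-RTE held 2 each. Fold enrichment, the ratio of summit pileup to local background with 1 added to both, had a median of 5.99 in SINE peaks and ran from 3.07 to 17.7. The median was 6.17 over all LV-MEIS1 peaks. MIR peaks had a median of 6.14 and Alu peaks 6.56, both near the median of the list.

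The strongest SINE peak was a MIR copy on chromosome 7 from 51606778 to 51607263, in intergenic sequence 290157 bp from COBL, which encodes an actin nucleator. Its pileup was 68.0 scaled reads over a background of 2.90, a fold enrichment of 17.7 that exceeded 99.9% of the list. An Alu copy of no named subfamily lay 8541 bp from MIR3945HG, the host gene of a microRNA, with a fold enrichment of 14.5. It had no TGACA within 50 bp of its summit, and the nearest was 221 bp away. A MIRb copy 4879 bp upstream of the start site of LOC644762, its nearest, lay in intron 1 of PDE6A, a rod phosphodiesterase gene, and had 12.1. A MIRb copy in intron 1 of CAPN2, which encodes the large subunit of a calcium-dependent protease, had 11.6. These 4 peaks were among the 5 strongest SINE peaks, lay at or above the 95.7th percentile of their list, and 3 of them overlapped a HOXB13ko-LV-MEIS1 peak.

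DNA transposons made up 2.85% of the LV-MEIS1 list (2.46% to 3.30%). The hAT-Charlie family held 96 of the 170 peaks and TcMar-Tigger 37, followed by hAT-Blackjack and hAT-Tip100 with 11 each and 5 peaks of no assigned family. The remaining 10 peaks were in 6 families of 1 to 4 peaks. The 170 peaks were spread over 75 element names, 41 of which occurred once. The most frequent names were MER58A (20 peaks), MER58B and MER1A (10 each) and MER63A (7), all non-autonomous hAT relatives. Cheshire, MER20 and MER5A had 5 peaks each, and MER1B, MER5B and MamRep1879 had 4. Another 7 names had 3: Charlie1a, Charlie25, MER113, MER44B, Tigger19a, Tigger3a and Tigger3b. Median fold enrichment was 6.32, from 3.27 to 18.7. By family the medians were 6.31 for hAT-Charlie, 6.70 for TcMar-Tigger, 6.91 for hAT-Blackjack and 6.00 for hAT-Tip100, all near the list's median.

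The strongest DNA transposon peak was a MamTip2 copy in intron 4 of RNLS, the renalase gene, on chromosome 10 from 88439809 to 88440430. Its pileup of 71.9 gave a fold enrichment of 18.7, and only 1 of the 5968 peaks was higher. The next were a MER1B copy in intron 1 of HIPK2, a nuclear protein kinase gene, with 11.4, and a MER58A copy in intron 1 of NAALADL2, a relative of the glutamate carboxypeptidase genes, with 11.1. A Cheshire copy 36697 bp from POU3F2, a neural POU factor gene, had 10.7, and a Chap1_Mam copy in intron 1 of KIAA1217 had 10.6. Of these 5, the first 4 had TGACA within 50 bp of the summit, and none overlapped a HOXB13ko-LV-MEIS1 peak.

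**Figure D1:**
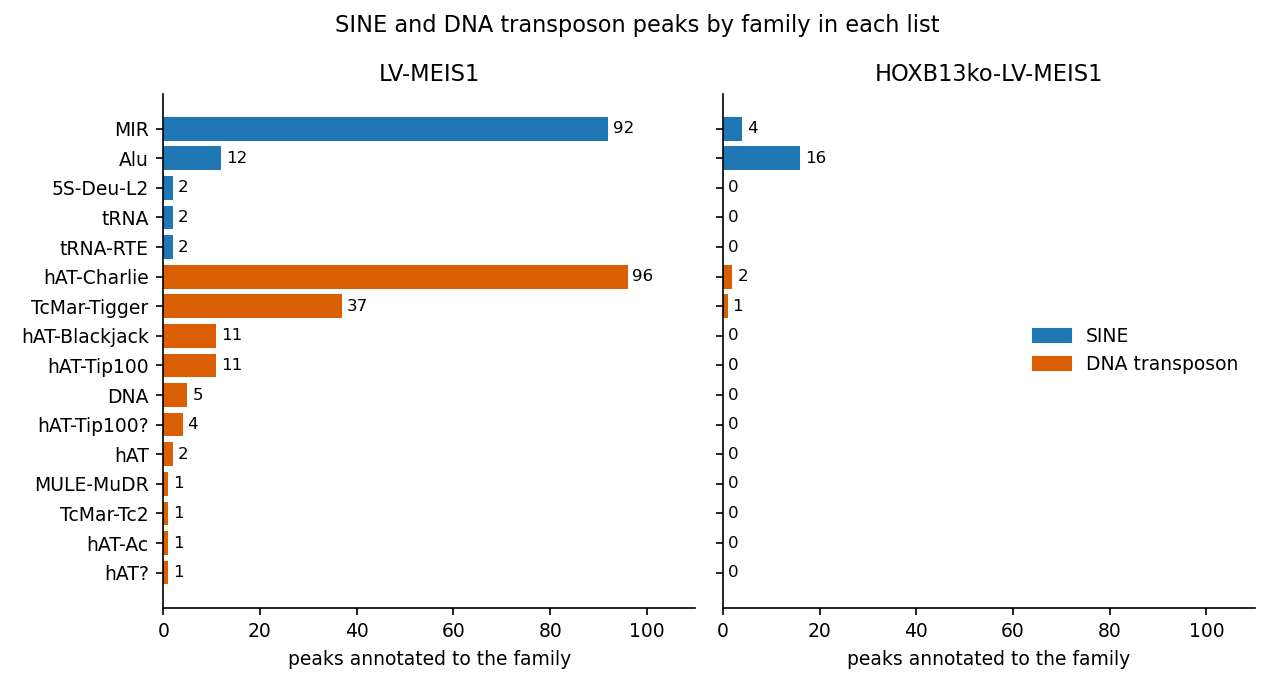
Bars give the number of peaks (x axis) annotated to each repeat family (y axis) in the LV-MEIS1 list (left) and the HOXB13ko-LV-MEIS1 list (right), with SINE families in blue and DNA transposon families in orange. MIR with 92 peaks and hAT-Charlie with 96 lead in LV-MEIS1 cells, whereas in the HOXB13ko-LV-MEIS1 list 16 of 23 members are Alu copies and 12 of the 16 families have no peak. That list is shorter (2047 peaks compared with 5968), and most of those 12 families have at most 5 peaks in the LV-MEIS1 list.

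In the HOXB13ko-LV-MEIS1 list SINEs made up 0.977% of peaks (0.633% to 1.50%) and DNA transposons 0.147% (0.0498% to 0.430%). The makeup of the SINE peaks was different, with 16 in Alu and 4 in MIR elements. Of the 16 Alu peaks, 14 lay on 3 reference sequences that carry ribosomal RNA genes: 9 on chromosome 21 between 8224784 and 8471822, 3 on chr22_KI270733v1_random and 2 on chrUn_GL000220v1. Those on chromosome 21 were 3445 to 25250 bp beyond the end of the 45S ribosomal RNA gene before them on the chromosome (RNA45SN1, RNA45SN2 or RNA45SN3 in RefSeq). The whole list had 50 peaks on these sequences and the LV-MEIS1 list 3, none of them an Alu.

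The ribosomal Alu peaks were weak against a high background. Their fold enrichment ran from 1.85 to 2.95 with a median of 2.33, and all were within the lowest 4.93% of the list. Summit pileup was 72.8 to 114 scaled reads, but the local background was 28.0 to 53.9, where the median over all peaks of the list was 3.20. The 50 bases around the summit occurred at 4 to 7 places in hg38 for 13 of the 14 and once for the other, so at those 13 summits a 50-base read has no single place in the genome. Of the 14 peaks, 10 fell into 3 groups whose members shared at least 25 bases near the summit, the largest of 5 peaks, and the other 4 shared none with another. They are therefore not 14 independent observations. Only 1 of the 14 had TGACA within 50 bp of the summit. How far repeated sequence accounts for these peaks was not tested.

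**Figure D2:**
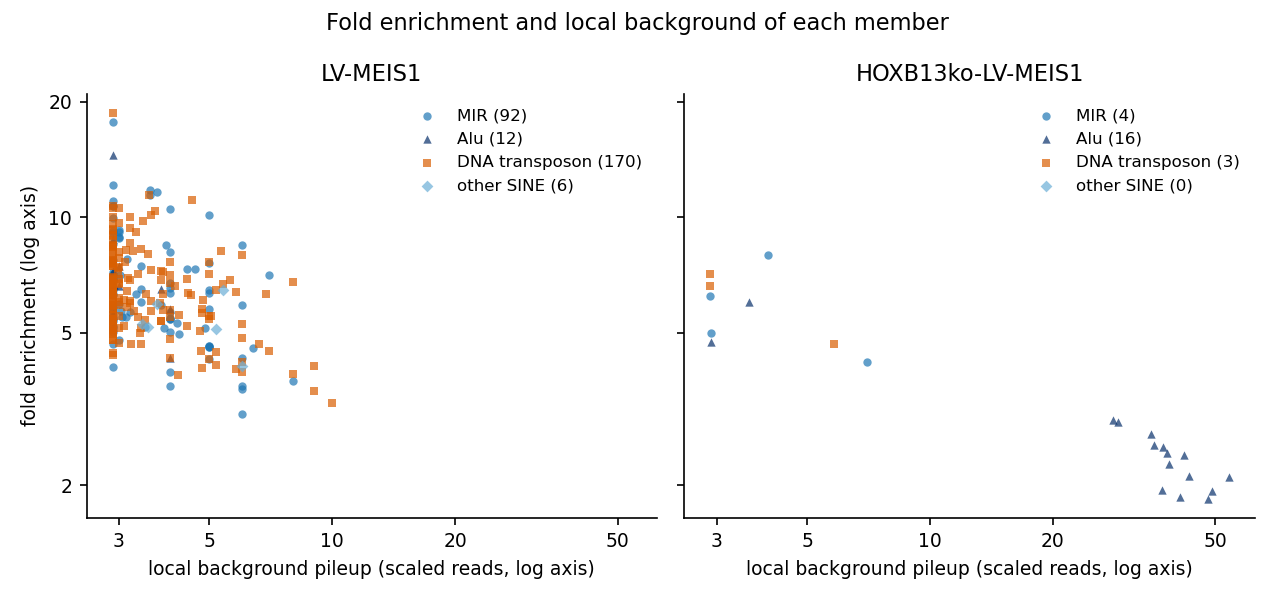
Each point is a member, with local background pileup on the x axis and fold enrichment on the y axis (both log axes), in the LV-MEIS1 list (left) and the HOXB13ko-LV-MEIS1 list (right). The 14 Alu peaks beside ribosomal RNA genes form a group of their own, with a background of 28.0 or more and a fold enrichment of at most 2.95.

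Outside these sequences the HOXB13ko-LV-MEIS1 list had 6 SINE peaks, with fold enrichment from 4.19 to 7.96. The highest was a MIRb copy in intron 3 of ABHD2, a lipid hydrolase gene (7.96), followed by the MIRb copy upstream of LOC644762 (6.23). An AluSx copy 6316 bp from EDF1, a transcriptional coactivator gene, had 6.00, and an AluSx3 copy 14176 bp from PISD, the mitochondrial phosphatidylserine decarboxylase gene, had 4.72. A MIR copy in intron 1 of POLR3E, which encodes a subunit of RNA polymerase III, lay 1167 bp from the start site and had 5.00. It was the only SINE peak of either list with the B box word GGTTCAA within 50 bp of its summit, and it overlapped no LV-MEIS1 peak. The last was a MIR copy in intron 1 of ECE1, the endothelin-converting enzyme gene (4.19). None of these 6 summit sequences occurred more than once in hg38.

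The 3 DNA transposon peaks of this list were a MER20B copy 77401 bp from SIAH3 (fold enrichment 7.09), a Tigger16a copy in intron 1 of DEGS2, a sphingolipid desaturase gene (6.61), and a MER5A copy in intron 1 of NAALADL2 (4.66). None had TGACA within 50 bp of the summit. In the LV-MEIS1 list MER1 copies held 14 peaks (0.235%) and MER58 copies 30 (0.503%). Neither was in this shorter list, and the part of list length and depth in that was not tested. Of the 90 element names in the LV-MEIS1 list 10 recurred here, and 3 names occurred here only.

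Overlap with the other list, by at least 1 bp, was found for 6 of 110 LV-MEIS1 SINE peaks (5.45%, 2.52% to 11.4%) and for 2 of 170 DNA transposon peaks (1.18%, 0.323% to 4.19%). Over all LV-MEIS1 peaks the share was 7.66%. A repeat name of these classes can be given only to peaks annotated in an intron or between genes. The absence of members from promoters and exons is therefore not a result. Over the 4477 LV-MEIS1 peaks annotated in introns or between genes the share was 6.23%. The upper bound of the DNA transposon share was below both values, whereas the SINE interval included them. In the HOXB13ko-LV-MEIS1 list 3 of 20 SINE peaks (15.0%, 5.24% to 36.0%) and 2 of 3 DNA transposon peaks overlapped an LV-MEIS1 peak, against 22.3% of all peaks and 21.3% of those in introns or between genes. No Alu copy of either list did. Outside the ribosomal sequences 3 of 6 SINE peaks of this list overlapped, and all 3 were MIR copies.

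The 6 overlapping LV-MEIS1 SINE peaks were all in MIR elements and both DNA transposon peaks were in hAT-Charlie. Of the 8 pairs, 7 had summits 2 to 36 bp apart. At COBL the fold enrichment was 17.7 with HOXB13 present and 11.6 after knockout, which put the peak above 99.9% and 96.2% of its own list. At LOC644762 the values were 12.1 and 6.23, at CAPN2 11.6 and 5.80, and at a MIRc copy 5033 bp from SEM1, a proteasome subunit gene, 10.5 and 7.45. For the DNA transposons they were 10.6 and 7.09 at SIAH3 and 6.37 and 4.66 at NAALADL2. At ECE1 they were 7.08 and 4.19. Fold enrichment depends on the pool and its scaling to the input, and these pairs have no replicates, so the sizes were not tested. Elements of the same name were annotated to both peaks at ECE1, LOC644762, SIAH3 and NAALADL2. At COBL, CAPN2 and SEM1 the HOXB13ko-LV-MEIS1 peak was annotated as intergenic or intronic.

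The eighth pair, singled out after its values were seen, was of another kind. A MIRb copy 23735 bp from MIR5188 had a fold enrichment of 4.67 in LV-MEIS1 cells, and the overlapping HOXB13ko-LV-MEIS1 peak was annotated to tRNA-Asp-GAY, with 13.4 and a summit 394 bp away. These 2 peaks overlapped by 167 bp. In the opposite direction, the MIRb copy in ABHD2 overlapped an LV-MEIS1 peak 19 bp away that was annotated to the intron, with fold enrichments of 9.05 and 7.96.

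**Figure D3:**
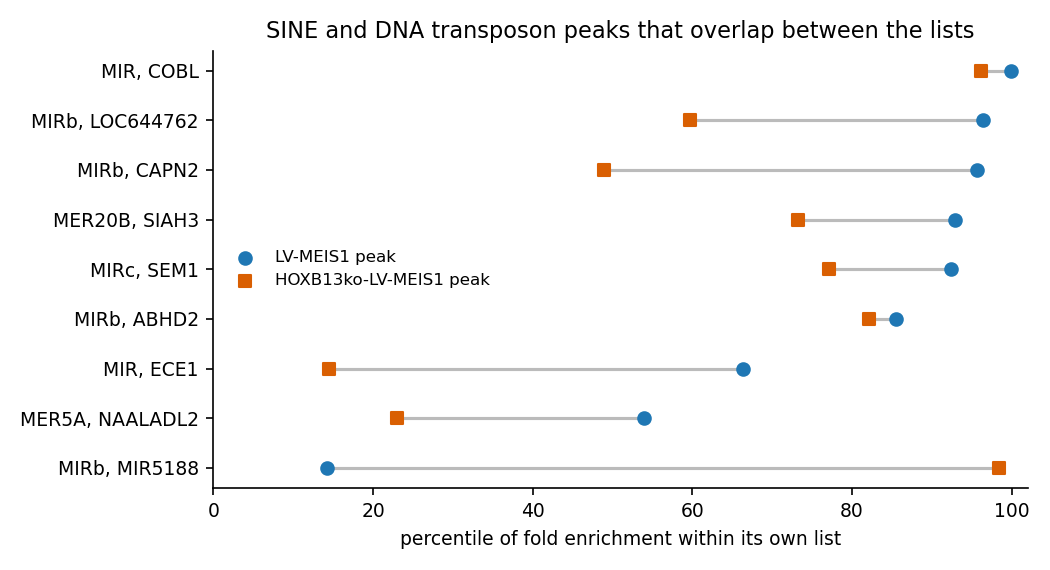
Percentile of fold enrichment within its own list (x axis) for the 9 pairs of overlapping peaks with at least 1 member (y axis, element and nearest gene), with LV-MEIS1 peaks as circles and HOXB13ko-LV-MEIS1 peaks as squares. The lists differ in length and depth, so a rank describes a peak within its list and not a change between lists. At MIR5188 the summits are 394 bp apart.

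TGACA was searched on both strands within 50 bp of each summit, and in equally wide flanks centred 500 bp to either side. Among LV-MEIS1 SINE peaks 71 of 110 had it at the summit (64.5%, 55.3% to 72.9%), compared with 20.9% of the flanks. The excess of 43.6 percentage points was beyond counting error (two-sided exact binomial test on discordant peaks, adjusted p = 3.37e-07 over 4 tests). Of the peaks that differed between the summit and the flank with the larger p, 56 had the word at the summit only and 13 in the flank only. Among DNA transposon peaks the share was 54.7% (47.2% to 62.0%) with 19.7% in the flanks, an excess of 35.0 points (adjusted p = 1.93e-08, exact binomial test, 75 against 19 peaks). Over all LV-MEIS1 peaks the shares were 56.1% at summits and 18.9% in flanks, and over those in introns or between genes 56.4% and 19.9%, so the DNA transposon peaks were near this background and the interval of the SINE peaks included it. These tests take peaks as units and say nothing about variation between cultures.

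The word also sat where the summits were. It was centred within 10 bp of the summit in 31 SINE peaks (28.2%) and 48 DNA transposon peaks (28.2%). Among members with the word within 50 bp, its median distance was 11 bp in SINE peaks and 9 bp in DNA transposon peaks. Summits with and without TGACA had similar strength: the median fold enrichment was 5.95 with and 6.02 without it in SINE peaks, and 6.45 and 6.26 in DNA transposon peaks.

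**Figure D4:**
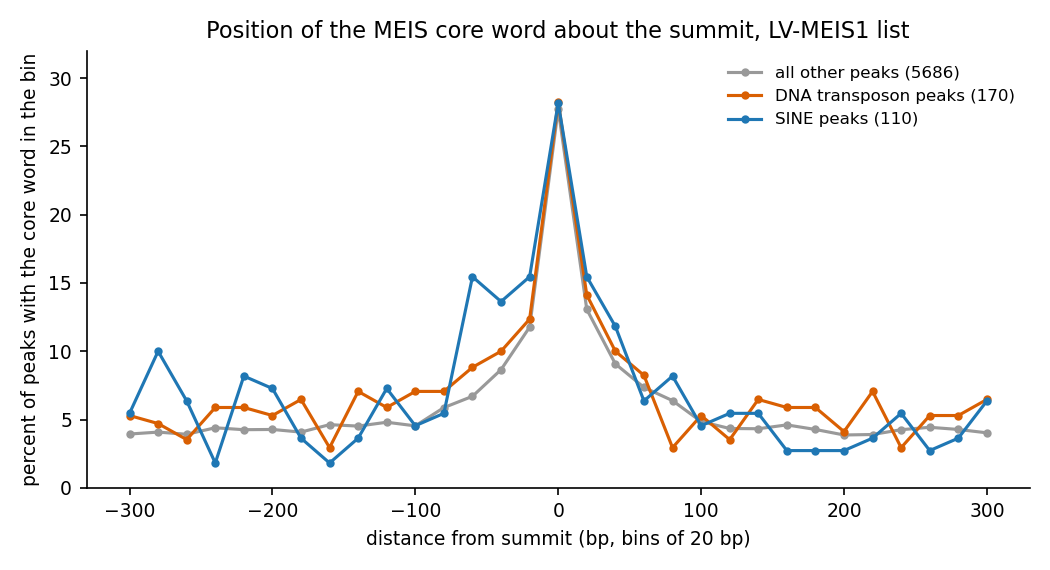
Percent of LV-MEIS1 peaks with TGACA centred in each bin of 20 bp (y axis) by distance from the summit (x axis), for SINE peaks (blue), DNA transposon peaks (orange) and all other peaks (grey). All 3 lines peak in the central bin at 27.7% to 28.2% and are at most 10.0% at every bin 100 bp or more away.

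In the HOXB13ko-LV-MEIS1 list 4 of 20 SINE peaks (95% Wilson interval 8.07% to 41.6%) and 0 of 3 DNA transposon peaks had TGACA at the summit, where 16.8% of all peaks of the list did. The flanks of the SINE peaks had it in 30.0%, and the difference of -10.0 points did not pass the test (adjusted p = 1 over the same 4 tests, exact binomial test). The excess in SINE peaks, with both flanks averaged, differed between the lists by 53.6 points. A two-sided Fisher's exact test on the discordant peaks of 1 flank, the flank with the larger p, gave p = 0.0105 (adjusted p = 0.021 over both classes). The test takes peaks as units and says nothing about variation between cultures. The difference of 53.6 points rests on the ribosomal Alu peaks: without them it was 18.6 points with p = 0.483 by the same exact test. It also missed the threshold with a wider window, the word TGACAG, farther flanks or summit sequences found once (p from 0.0935 to 0.237, the same exact test). For DNA transposons the 3 HOXB13ko-LV-MEIS1 peaks had TGACA at no summit and in 33.3% of the flanks, but in the flank with the larger p none was discordant, and the difference between the lists could not be tested on it. The 4 SINE peaks with the word were those at LOC644762, ECE1 and EDF1 and 1 ribosomal AluSp.

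By family, the share of summits with TGACA ran from 27.3% to 83.3%. Of 12 Alu peaks of the LV-MEIS1 list 10 had it (83.3%, 55.2% to 95.3%), as did 57 of 92 MIR peaks (62.0%, 51.7% to 71.2%), 58 of 96 hAT-Charlie peaks (60.4%, 50.4% to 69.6%), 19 of 37 TcMar-Tigger peaks (51.4%, 35.9% to 66.6%), 6 of 11 hAT-Tip100 peaks and 3 of 11 hAT-Blackjack peaks. The intervals of these families overlap. The 5 peaks of no assigned family had it at 40.0% of summits and 50.0% of flanks. Within hAT-Charlie the element names ranged more widely. All 10 MER1A and all 4 MER1B peaks had TGACA (100.0%, 78.5% to 100.0%, with 17.9% in their flanks), whereas 6 of 20 MER58A peaks did (30.0%, 14.5% to 51.9%). Of 10 MER58B peaks 7 had it (70.0%, 39.7% to 89.2%). The intervals of the MER1 and MER58A shares do not overlap, and that of MER58B overlaps both. These element groups were compared after their values were seen, and no test of the difference is given.

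**Figure D5:**
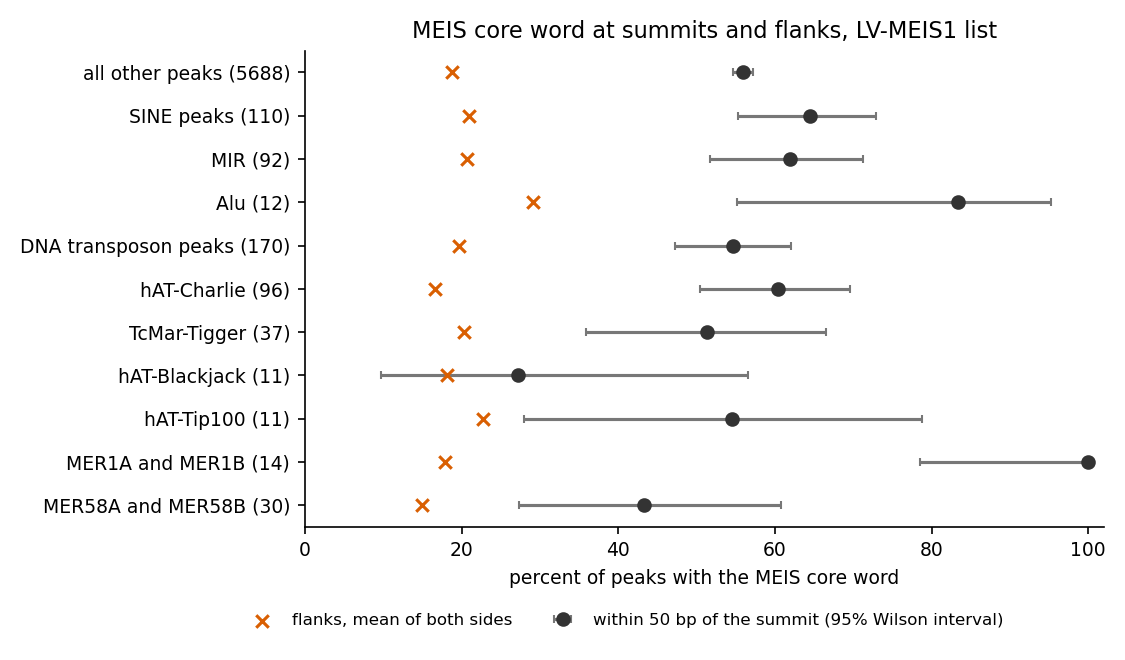
Percent of LV-MEIS1 peaks with TGACA (x axis) within 50 bp of the summit (circles, bars are 95% Wilson intervals) and in flanks 500 bp to either side (crosses, mean of both sides), by class, family and element group (y axis, number of peaks in brackets). Each group plotted lies above its flanks (the 5 peaks of no assigned family, not plotted, lie below theirs), with MER1 copies at 100.0% and hAT-Blackjack lowest at 27.3%.

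The MER1 peaks shared more than the core. The word ATCTGACAGGAG, taken from these peaks as the most common 12-letter word around TGACA, was present in 10 of the 14 MER1 summits and in none of their 28 flanks. Because the word was chosen from these summits, the flanks are no test of it. Only 12 of 5968 LV-MEIS1 peaks (0.201%) and no HOXB13ko-LV-MEIS1 peak held it. On chromosomes 1 to 22, X and Y of hg38 it occurs 3580 times on both strands. Fold enrichment of the 14 MER1 peaks ran from 5.02 to 11.4 with a median of 6.86.

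Among Alu peaks the most common such word was CCTGGGTGACAG, found in 4 of 12 summits and in 5 LV-MEIS1 peaks in all (0.0838%). It occurs 160033 times in hg38. The related word with T7C, counted from 1 at the 5′ end of that word, reads CCTGGGCGACAG and lacks TGACA. It occurs 99958 times in hg38 and was at 1 LV-MEIS1 summit. The Alu peaks were thus few beside the copies of either word. A 50-base read often has no single place in a young Alu, and the part of this in the low number was not tested. All 12 LV-MEIS1 Alu summits had a 50-base sequence found once in the genome.

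MER58A summits often held a HOX word without the MEIS core, and MER58B summits did so less often. ATAAA, which is TTTAT on the other strand, was at 15 of 20 MER58A and 6 of 10 MER58B summits, and TTTAC at 15 and 6. The word TCCAATAAA, taken from these summits, was at 8 of the 30 and at 34 LV-MEIS1 peaks in all (0.570%). It occurs 54060 times in hg38. None of the 60 flanks held it, but the word was chosen from the summits, so the flanks are no test of it. A posterior HOX word without TGACA was at 16 of the 30 MER58 summits, both were at 10, TGACA alone at 3 and neither at 1. The HOX word without TGACA was thus at 53.3% of MER58 summits, compared with 27.4% of all LV-MEIS1 peaks and 33.1% of those in introns or between genes, and the element group was singled out after its values were seen. Of the 20 MER58A peaks 13 had a HOX word only, and of the 10 MER58B peaks 3 did, near those backgrounds. TGACA was at 7 of the 10 MER58B summits. hAT-Blackjack, of which MER63A is the main element, resembled MER58A and was also singled out after its values were seen. A HOX word without TGACA was at 8 of its 11 summits (72.7%). TTTAC was at 9 (flanks 31.8%) and TGACA at 3 (flanks 18.2%), compared with 33.0% and 56.1% of all LV-MEIS1 peaks.

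Over the classes, HOX words were near the background of peaks in introns or between genes. ATAAA was at 52.7% of SINE and 55.9% of DNA transposon summits (flanks 41.4% and 42.6%), compared with 56.0% of such peaks and 45.8% of all LV-MEIS1 peaks. TTTAC was at 40.9% and 46.5% (flanks 21.4% and 27.1%), compared with 39.8% and 33.0%. TGACA or a HOX word was within 50 bp of 90.9% of SINE and 94.1% of DNA transposon summits, compared with 89.5% of the peaks in introns or between genes and 83.5% of all. In the HOXB13ko-LV-MEIS1 list either word was at 30.0% of the SINE peaks, 39.3% of the peaks in introns or between genes and 32.6% of all. It was at 66.7% of the 3 DNA transposon peaks. Of the 20 SINE peaks 14 were ribosomal Alu copies, and 13 of the 16 Alu peaks of the list had neither word. The 2 words stood end to end, with no base between TGACA and TTTAT or TTTAC, in 4 MIR peaks (4.35%) and 1 hAT-Charlie peak, compared with 64 of all 5968 LV-MEIS1 peaks (1.07%). The copy at ECE1 that was in both lists was among the 4. Gaps of 0 to 10 bases were counted, and the end-to-end pair was singled out after its values were seen. Over all LV-MEIS1 peaks a gap of 2 bases was more common (72 peaks, 1.21%), and no MIR peak had it.

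The forkhead word TGTTTAC was at 26 of 170 DNA transposon summits (15.3%, 10.7% to 21.5%), compared with 2.35% of their flanks, 8.71% of all LV-MEIS1 peaks and 10.97% of those in introns or between genes, and at 5 of 110 SINE summits (4.55%). It overlaps TTTAC, and 8 MER58A and 3 MER58B peaks supplied 11 of the 26. Composite words of MEIS, PBX and HOX proteins were rare in the whole list and in members. TGATTTAC was at 2.09% of all LV-MEIS1 peaks, at 7 DNA transposon summits (4.12%, 2.01% to 8.25%) and at 1 SINE summit. TGATTGAC, at 1.71% of all peaks, was at 1 of each class, and TGATTAC, at 1.16%, was at 1 DNA transposon and no SINE summit. The AP-1 word TGAGTCA, at 2.33% of all peaks, was at 3 and 1. TGACAG, the core with 1 more base, was at 34.7% of DNA transposon and 35.5% of SINE summits and at 30.4% of all peaks. In the HOXB13ko-LV-MEIS1 list TGATTTAC and TGATTAC were each at 1 of 3 DNA transposon summits and no SINE summit, compared with 0.489% of all its peaks. Both were at the MER20B copy near SIAH3.

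B box words, which mark the internal promoter of tRNA genes and of SINEs made from them, were close to absent from the whole LV-MEIS1 list, its members included: GGTTCGA was at 0.117% of all peaks, GGTTCAA at 0.603% and GTTCGAG at 0.385%. In members, GGTTCGA and GGTTCAA were at no SINE and no DNA transposon summit, and GTTCGAG was at 1 Alu. In the HOXB13ko-LV-MEIS1 list GGTTCGA was at 5.37% of all peaks but at no member. GGTTCAA, at 1.37% of all peaks, was at the POLR3E copy, and GTTCGAG, at 1.76%, was at 3 Alu summits. These 3 were AluSz copies among the ribosomal Alu peaks, and their summit sequences occur more than once in hg38. A count of 0 allows a share of up to 2.73% of the 110 SINE summits and 1.76% of the 170 DNA transposon summits (3 counts of the total).

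Of the 280 LV-MEIS1 members 161 were annotated to an intron (57.5%) and 119 to intergenic sequence, and of the 23 HOXB13ko-LV-MEIS1 members 11 and 12. Among all LV-MEIS1 peaks of these 2 annotations 50.7% were in introns. The median distance to the nearest transcription start site was 37188 bp for LV-MEIS1 members, compared with 43710 bp for peaks in introns or between genes and 23121 bp for the whole list, which also holds promoter peaks. There were 56 members within 10 kb and 63 beyond 100 kb, compared with 878 and 1289 of the 4477 peaks in introns or between genes. MER63A copies were farthest among the named elements with 7 or more peaks, with a median of 111510 bp. The 4 MamRep1879 peaks were farther, with a median of 225487 bp. HOXB13ko-LV-MEIS1 members had a median of 11637 bp, near the 10517 bp of their whole list and below the 27155 bp of its peaks in introns or between genes, and for the ribosomal Alus this is the distance to the ribosomal or microRNA genes beside them.

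The 280 LV-MEIS1 members were assigned to 262 genes, 246 of which had 1 member. AFF3, a nuclear factor gene, and PMEPA1, an androgen- and TGF-beta-inducible membrane protein gene, had 3 each, named here after their values were seen. At AFF3 a MIRb, a Charlie19a and a UCON8 copy had fold enrichments from 5.02 to 9.99, among 7 peaks of the gene. PMEPA1 had a MER53, a MER58A and a MER58B copy among its 6 peaks, with 6.30 to 8.93.

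Few LV-MEIS1 members were in duplicated sequence. The 50 bases around the summit were found more than once in hg38 for 9 of 280 members (3.21%), near the 3.70% of the whole list, and for 13 of 23 HOXB13ko-LV-MEIS1 members (56.5%), compared with 20.8% of its list. The 9 were 4 MIRc copies on chromosomes 9 and 16, 3 Cheshire copies on chromosome 16 and 2 Tigger16a copies on chromosome 7. The MIRc copies near CBWD3, CBWD5 and CBWD6, at chr9:68242515-68242559 (minus strand), chr9:65676460-65676504 (minus) and chr9:41188731-41188775 (plus), read the same over these bases, with TGACA in capitals.
MIRc near CBWD3: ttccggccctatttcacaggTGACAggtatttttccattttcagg
Their fold enrichments were 5.29, 4.95 and 5.13, and they count as 1 sequence seen 3 times rather than as separate sites.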

How the data were processed

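MEIS1 ChIP-seq peak lists and their annotations were used, 1 of each per line. The paper reports more LV-MEIS1 peaks than the deposited list holds, and all shares here are of the deposited list. The authors trimmed reads with Trimmomatic 0.38, removed duplicates with Picard 2.18.10, aligned to hg38 (GRCh38.p12) with Bowtie2 and called pooled peaks with MACS2 2.1.2 (q-value of 0.01, reads extended to 200 bp). HOMER 4.9.1 gave repeats and nearest genes. The deposited signal is the summit pileup after the authors scaled each pool to the input, by 0.193 and 0.370. Because of that scaling, peaks were ranked by fold enrichment inside their own list only. Fold enrichment as deposited is pileup over local background, a ratio with 1 added to both, from which background was recovered. The authors' p-value and q-value are −log10 values. Other deposited values are distances to start sites. The input has no peak list here.

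Here, members were selected by repeat class, words were searched in hg38, exact copies of the 50 bases about each summit were counted on both strands outside alternate sequences, and shares were given 95% Wilson intervals. TGACA at summits and flanks was tested by exact binomial tests with Benjamini-Hochberg adjustment over 4 tests, and lists were compared by Fisher's exact tests on discordant peaks. Shares over all peaks annotated to introns or intergenic sequence, the annotations that members have, were added after the data were seen. Depth per replicate is unknown after pooling. Scripts were tested on simulated data and used Python 3.11.15, scipy 1.17.1, pandas 2.3.3 and pysam 0.24.0.

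Genes are named for the 5 strongest peaks of each class and list and the 5 strongest overlapping peaks per class, with families of 5 or more and elements of 3 or more peaks. Others were singled out after their values were seen or label a printed sequence. Some genes and sequences that fall under these rules are not reported here. Members and lists were chosen with earlier results of these data known.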

Additional observations from a re-analysis of the deposited data

Results flagged for a closer look

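The excess of TGACA at the summits of SINE peaks differed between the lists, being larger in LV-MEIS1 cells by 53.6 percentage points (p = 0.0105 by a two-sided exact test of Fisher on the discordant peaks). The HOXB13ko-LV-MEIS1 side of the comparison has 10 discordant peaks among 20, and 14 of the 20 are the Alu copies beside ribosomal RNA genes, which share sequence with each other.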

How the results depend on the processing

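Of 57 alternatives 46 kept the direction and side of the threshold, or the size. In the HOXB13ko-LV-MEIS1 list a minimum fold enrichment of 5 left 4 SINE peaks, of which 50.0% overlapped the other list with the same minimum applied to both. The excess of TGACA in SINE peaks of that list turned from -10.0 to 14.3 points with summit sequences found once in the genome (exact binomial p = 1). Outside the ribosomal sequences, an alternative chosen after seeing the data, 6 SINE peaks remained, 50.0% overlapped the other list and the excess was 25.0 points (exact binomial p = 1). The difference of 53.6 points between the lists lost its call under 5 of 6 alternatives added after seeing the data (Fisher's exact test): 37.3 points (p = 0.2) with windows of 100 bp, 35.2 (p = 0.237) with TGACAG, 48.9 (p = 0.0935) with flanks at 1000 bp, 27.2 (p = 0.204) with summit sequences found once and 18.6 (p = 0.483) outside the ribosomal sequences. It was 56.6 (exact p = 0.0233) at a −log10 q of 5 or more. Fewer peaks entered the alternatives limited by sequence, and why the call was lost was not tested for any alternative. No paired analysis was possible because the immunoprecipitations of each line were pooled before peak calling. Both lists rest on the same smaller input, and the HOXB13ko-LV-MEIS1 pool was the shallower; the part of depth in which peaks were called was not tested.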
